A study of Homo sapiens with 6 samples.

Results

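Expression of 37 genes of glucose entry, glycolysis, lactate handling and the neighbouring steps of pyruvate and glycogen metabolism was followed in HuCCT1 cells, a long-established human line from a cancer of the bile duct (cholangiocarcinoma). The members are the rows of the deposited count table that carry one of 37 fixed gene symbols, out of 26485 rows. All 37 symbols were found, and 36 of them passed the filter on low counts; the exception was LDHB. The comparison is between 2 CRISPR-derived clones, each in 3 libraries lettered a, b and c: clone 1, labelled wild type, and clone 22, labelled knockout for the aquaporin-1 water channel gene AQP1. Both clones were grown in DMEM-F12 medium with fetal bovine serum, glutamine and antibiotics on plastic, and no other treatment is given in the labels. Each genotype is 1 clone, so genotype and clone cannot be told apart. Whether the letters are separate cultures is not stated, and the spread behind each p-value may therefore be technical.

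Glycolysis splits glucose into pyruvate. Glucose enters through facilitative transporters of the SLC2A (GLUT) family and is trapped by hexokinase. Phosphofructokinase commits it to breakdown, and a series of abundant enzymes then carries the carbon to pyruvate. Pyruvate is either reduced to lactate by lactate dehydrogenase and exported by monocarboxylate transporters, or enters mitochondria and is oxidised by pyruvate dehydrogenase, which the PDK kinases inhibit. Most steps have several isoenzymes from separate genes that differ in affinity, regulation and tissue. Cancer cells commonly use much glucose even with oxygen present, and the glycolytic genes are known targets of the hypoxia-inducible factors.

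The libraries held 36925338 to 41724447 counts, and levels below are in CPM, counts scaled to a library total of 1000000. AQP1 itself had 2 to 10 counts in a library and did not pass the filter; in a separate fit with AQP1 added back, no difference was detectable (log2 fold change 0.27, SE 0.63, adjusted p = 0.715, edgeR quasi-likelihood test with Benjamini-Hochberg adjustment), which does not check an edit of the gene. Of 8 cholangiocyte markers, 8 were tested, 5 fell and 2 rose, and their summed level was 3137 to 3209 CPM in wild type and 1886 to 1918 CPM in knockout. Each marker count here stands beside 37.2% of all tested genes called lower and 37.1% called higher. KRT7 stood at 1751 ± 38.3 and 1613 ± 12.5 CPM (mean ± SD, n = 3, as throughout), KRT19 at 756 ± 13.8 and 93.5 ± 4.59 CPM, and EPCAM at 484 ± 6.24 and 40.7 ± 1.41 CPM. SPP1 rose from 0.291 ± 0.0469 to 11.4 ± 1.01 CPM and ANXA4 from 37.7 ± 2.01 to 69.8 ± 2.90 CPM. For SPP1 the knockout libraries were needed to pass the filter. Summed fibroblast markers were 15.9 to 18.1 CPM in wild type and 35.5 to 38.4 CPM in knockout, with 4 of 5 tested genes higher. LUM rose from 5.33 ± 0.616 to 17.4 ± 0.675 CPM. PDGFRA rose from 0.712 ± 0.0800 to 6.66 ± 1.05 CPM and PDGFRB from 0.653 ± 0.226 to 2.72 ± 0.339 CPM. DCN, counted among the 4, had 0.0320 ± 0.0553 and 0.907 ± 0.138 CPM and passed the filter on the strength of the knockout libraries alone. COL1A1 did not pass, and the collagen genes COL1A2 and COL3A1 were at or below 0.057 CPM. Hepatocyte markers summed to 52.3 to 56.2 and 68.8 to 74.9 CPM, nearly all of it SERPINA1, with ALB at or below 0.034 CPM. Immune markers summed to 110 to 115 and 205 to 212 CPM, nearly all of it CD68, with PTPRC at 0 counts. Endothelial markers summed to at most 3.06 CPM and skeletal muscle markers to at most 0.84 CPM in a library. The part of these markers in the results below was not tested. In bulk libraries a change of level per cell cannot be told apart from a change in the share of cells that express a gene.

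The lower part of glycolysis was higher in the knockout clone as a block, while the main glucose transporter and the inducible hexokinase were lower. Of 36 tested members, 27 rose (75%) and 7 fell (19.4%), where 37.1% of the 14405 genes tested were called higher and 37.2% lower. In either direction 94.4% of the members were called, against 74.4% of all genes. Sizes were mostly small: 21 of the 34 called members differed by less than 1.5-fold. The median absolute log2 fold change of the members was 0.41, beside 0.46 over all genes tested. At least 2-fold differences were found in 4 rises (SLC2A3, SLC2A6, SLC2A12 and PDK4) and 3 falls (SLC2A1, HK2 and FBP1), 19.4% of the members against 22.8% of all genes. The groups did not overlap in CPM for 35 of the 36, against 77.3% of all genes; ALDOC was the exception. The median log2 fold change of the members was 0.34, beside 0.0056 over all genes tested. Every tested member had at least 16 counts in every library, so none passed the filter through 1 group alone. All calls are from edgeR's quasi-likelihood test, with p-values adjusted by Benjamini-Hochberg over the 14405 genes. Tested against a 1.5-fold change instead (glmTreat), 9 rises and 4 falls were called among the 36 members. Among all 14405 genes it called 2384 rises and 1970 falls.

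**Figure D1:**
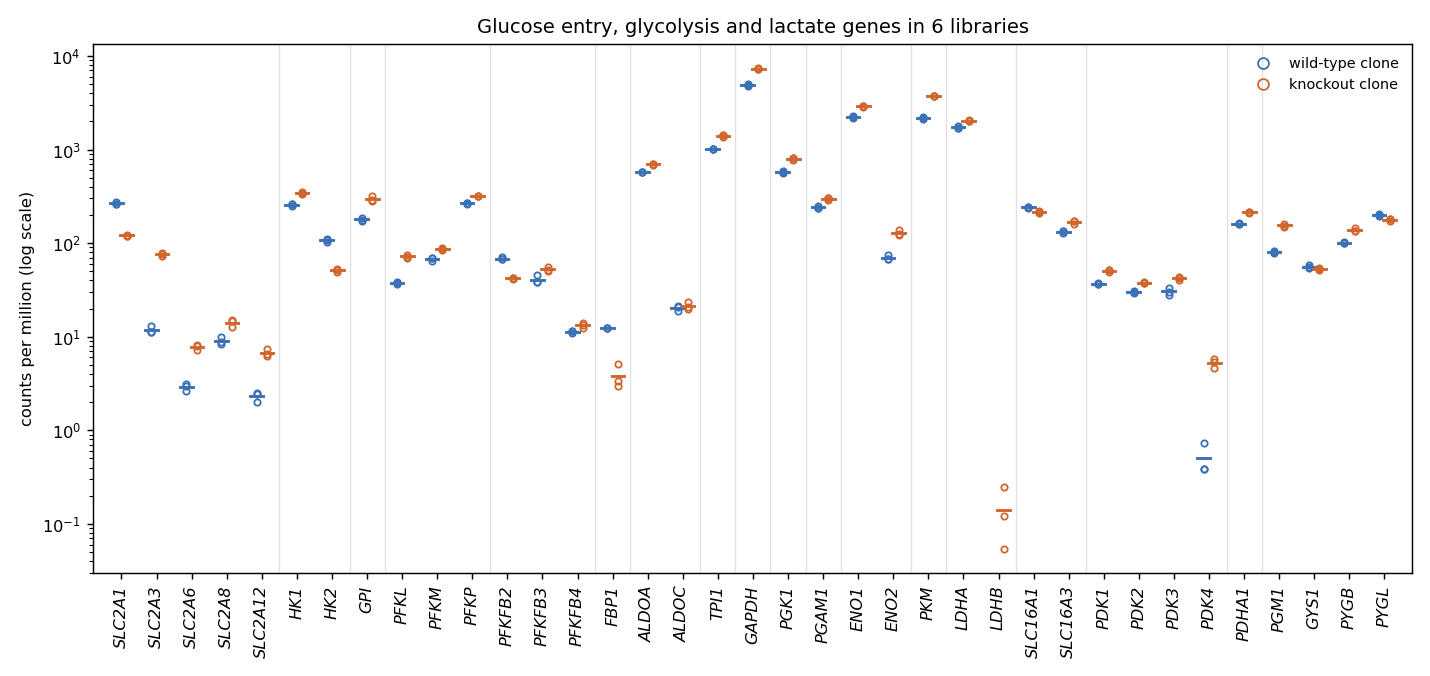
CPM (log scale) of each gene in 6 libraries, ordered by step, with vertical lines between steps. Circles are libraries, bars are group means of 3, blue is the wild-type clone and orange the knockout clone; LDHB is not drawn for wild type, where it had 0 counts. GAPDH is at the top in both clones, SLC2A1 and HK2 fall, and SLC2A3 and PDK4 rise most.

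Promoter sequences are shown for selected members: SLC2A1 and HK2, which fell, PGK1 and LDHA, which rose, and LDHB, which was nearly silent. Each is the 250 bases before a RefSeq gene start (GRCh38.p14), read 5′ to 3′ along the gene's strand. Capitals mark ACGTG or GCGTG on either strand, the core letters that hypoxia-inducible factors are known to read; CACGTG, which reads the same on both strands, counts as 1 place. The windows are chr1:42958869-42959118 (minus strand) for SLC2A1, chr2:74833877-74834126 (plus) for HK2, chrX:78103998-78104247 (plus) for PGK1, chr11:18394313-18394562 (plus) for LDHA and chr12:21657843-21658092 (minus) for LDHB.
SLC2A1: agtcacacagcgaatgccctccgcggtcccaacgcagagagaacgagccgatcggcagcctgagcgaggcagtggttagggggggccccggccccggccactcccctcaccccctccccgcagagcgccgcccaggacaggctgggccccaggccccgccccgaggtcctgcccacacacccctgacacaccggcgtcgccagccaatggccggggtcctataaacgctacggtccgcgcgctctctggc
HK2: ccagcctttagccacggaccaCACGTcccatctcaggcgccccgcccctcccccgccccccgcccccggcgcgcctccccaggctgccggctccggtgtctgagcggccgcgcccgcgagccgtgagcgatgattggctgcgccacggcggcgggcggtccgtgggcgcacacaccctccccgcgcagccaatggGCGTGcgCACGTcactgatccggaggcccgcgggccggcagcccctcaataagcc
PGK1: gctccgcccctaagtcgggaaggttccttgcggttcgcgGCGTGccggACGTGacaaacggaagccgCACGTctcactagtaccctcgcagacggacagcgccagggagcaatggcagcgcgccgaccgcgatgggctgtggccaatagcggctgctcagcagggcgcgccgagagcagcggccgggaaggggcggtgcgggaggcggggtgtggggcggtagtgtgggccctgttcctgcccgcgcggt
LDHA: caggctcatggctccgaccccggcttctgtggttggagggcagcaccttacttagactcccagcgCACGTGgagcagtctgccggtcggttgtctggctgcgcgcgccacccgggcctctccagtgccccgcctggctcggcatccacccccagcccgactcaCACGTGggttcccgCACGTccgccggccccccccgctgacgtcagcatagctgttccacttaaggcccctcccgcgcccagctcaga
LDHB: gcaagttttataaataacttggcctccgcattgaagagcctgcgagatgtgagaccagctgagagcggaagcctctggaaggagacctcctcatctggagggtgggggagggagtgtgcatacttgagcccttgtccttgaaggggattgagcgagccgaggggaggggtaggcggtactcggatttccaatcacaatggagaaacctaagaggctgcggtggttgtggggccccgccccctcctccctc

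These letters stood at 3 places in each of the HK2, PGK1 and LDHA windows shown and at none in the SLC2A1 and LDHB windows. HK2 and LDHA each have another window, which held 4 places for HK2 and 1 for LDHA. The windows of PKM and PGAM1, which also rose, held none. The LDHB window held 9 CpG pairs and the LDHA window shown 22. The median was 11 over the windows of all genes and 22 over those of the members. RefSeq windows were found for 34 of the 37 members, often several per gene, 64 in all, and none was found for SLC2A3. At least 1 place was present in 34 of these 64 windows (53.1%), beside 43.2% of the 35116 windows of all genes. By direction it was 28 of 55 windows of genes that rose and 4 of 6 of genes that fell. Both runs of letters contain a CpG pair, and windows of a gene can overlap, as some do for HK1 and PFKM. The part of CpG content and of overlapping windows in these shares was not tested. A match is a run of letters and no evidence of binding, and which start site the cells used was not measured.

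At glucose entry, SLC2A1 fell and SLC2A3 rose, and SLC2A1 stayed the most abundant transporter transcript per kb. SLC2A1 (GLUT1, the widespread basal glucose transporter; ENSG00000117394, chromosome 1, 42925353 to 42958868, GRCh38) had 261, 260 and 274 CPM in wild type (libraries a, b, c in that order, here and below) and 120, 123 and 120 CPM in knockout. All 3 knockout libraries lay far below the wild-type libraries, a 2.19-fold lower mean (log2 fold change -1.19, SE 0.029, adjusted p = 2.39e-13, edgeR quasi-likelihood with Benjamini-Hochberg). SLC2A3 (GLUT3, a high-affinity transporter best known from neurons; ENSG00000059804, chromosome 12, 7919230 to 7936187) had 11.3, 11.3 and 12.9 CPM in wild type and 78.4, 76.7 and 73.0 CPM in knockout. Its mean was 6.42-fold higher (log2 fold change 2.63, SE 0.067, adjusted p = 3.89e-13, same test). Its close copy SLC2A14 stood at 0.226 ± 0.141 and 0.0816 ± 0.0706 CPM, so few counts were assigned there, although reads shared by the pair could have been split in counting.

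Lesser transporters of the family also rose. SLC2A6 (GLUT6, an intracellular transporter) had 2.98, 2.61 and 3.14 CPM in wild type and 8.21, 7.14 and 8.02 CPM in knockout (log2 fold change 1.36). SLC2A12 (GLUT12) had 2.47, 2.49 and 1.99 CPM against 7.30, 6.19 and 6.55 CPM (1.47), and SLC2A8 (GLUT8, also intracellular) had 8.41, 8.81 and 10.0 CPM against 12.6, 15.1 and 14.7 CPM (0.58). No library of one clone reached the range of the other for any of these transporters. In SLC2A12, 38.9% of the exon bases overlap TBPL1 on the opposite strand; TBPL1 did not pass (15.8 ± 1.17 and 15.1 ± 1.66 CPM, adjusted p = 0.238), and whether counting used strand is not given. In all, exons of 10 members overlap another gene of the table, over 10% of the exon bases in SLC2A12, PDK2 and FBP1. Genes without a row overlap members too. The longest such overlaps, on the same strand, are AC093512.2 with ALDOA (1636 bases of 2.407 kb of exon) and AC010197.2 with LDHB (891 bases of 1.586 kb). Their part in the counts was not tested.

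Divided by exon length, so that genes can be set side by side, SLC2A1 made up 88.2 ± 0.42% of the summed level of these transporters in wild type and 49.9 ± 0.35% in knockout. SLC2A3 went from 4.01 ± 0.18% to 31.9 ± 0.97%. The sum itself was 75.4 ± 2.66 CPM per kb in wild type and 60.8 ± 0.772 CPM per kb in knockout, without overlap between the libraries of the clones. Per kb, SLC2A1 was 21.9-fold above SLC2A3 in wild type and 1.56-fold above it in knockout.

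The hexokinase members HK1 and HK2, whose enzymes phosphorylate glucose and so retain it, moved in opposite directions. HK1, the constitutive form (ENSG00000156515, chromosome 10, 69270000 to 69401882), had 259, 264 and 247 CPM in wild type and 342, 336 and 352 CPM in knockout (log2 fold change 0.36, SE 0.029, adjusted p = 6.19e-08, edgeR quasi-likelihood with Benjamini-Hochberg). HK2, the inducible form often raised in tumours (ENSG00000159399, chromosome 2, 74834127 to 74893359), had 108, 111 and 102 CPM against 49.3, 53.0 and 51.6 CPM, a 2.08-fold lower mean (-1.11, SE 0.042, adjusted p = 2.07e-11). HK2 thus went from 24.7 ± 0.18% to 10.5 ± 0.45% of the summed level of HK1 and HK2 per kb. HKDC1, a further hexokinase gene outside the members, is not in this share. It rose from 46.4 ± 2.47 to 55.5 ± 2.91 CPM and is named after its values were seen. The sum of HK1 and HK2 was 73.0 ± 2.73 CPM per kb in wild type and 82.1 ± 1.69 CPM per kb in knockout, and the libraries of the clones did not overlap.

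Of the 14 tested genes for the enzymes that carry carbon from glucose 6-phosphate to lactate, 13 rose, by 0.18 to 0.90 on the log2 scale, beside 37.1% of all genes. ALDOC did not pass; the regulatory PFKFB genes and FBP1, which runs the other way, are not among the 14. GPI, which turns glucose 6-phosphate into fructose 6-phosphate, had 186, 179 and 174 CPM in wild type and 280, 287 and 321 CPM in knockout (log2 fold change 0.66). Among the phosphofructokinase genes, which carry the committing step, the liver form PFKL rose from 37.2, 38.5 and 36.1 CPM to 74.9, 71.5 and 69.7 CPM (0.90). The muscle form PFKM rose from 67.6 ± 3.23 to 86.1 ± 2.09 CPM (0.29) and the platelet form PFKP from 266 ± 4.62 to 320 ± 2.51 CPM (0.21). PFKP remained the leading form per kb, at 72.5 ± 0.48% of the sum of the phosphofructokinase genes in wild type and 66.6 ± 0.23% in knockout.

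The genes that set fructose 2,6-bisphosphate, the strongest activator of phosphofructokinase, did not move as a group. PFKFB2 had 70.8, 67.2 and 67.1 CPM in wild type and 41.71, 41.95 and 42.03 CPM in knockout, a fall of every library (log2 fold change -0.76, SE 0.046, adjusted p = 3.05e-09, edgeR quasi-likelihood with Benjamini-Hochberg). PFKFB3, the form with the highest kinase activity, rose from 38.8, 45.2 and 38.2 CPM to 52.0, 55.6 and 49.8 CPM (0.31, adjusted p = 0.00114). PFKFB4 did not pass, at 11.3 ± 0.210 and 13.2 ± 0.766 CPM (0.17, adjusted p = 0.0665); it passed with RLE factors, with library totals alone, with a 1 CPM minimum and without knockout library a (adjusted p 0.0208 to 0.0486). The sum of the PFKFB genes per kb was 18.1 ± 0.666 in wild type and 17.9 ± 0.516 CPM per kb in knockout, with overlapping libraries. FBP1, the gluconeogenic enzyme that runs the phosphofructokinase step backwards, had 12.5, 12.5 and 12.4 CPM in wild type and 3.38, 5.06 and 2.95 CPM in knockout, a 3.28-fold lower mean (-1.76, SE 0.162, adjusted p = 2.61e-07). PCAT7 overlaps 16.3% of the FBP1 exon bases on the opposite strand and stood at 0.613 ± 0.221 and 1.04 ± 0.134 CPM.

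The trunk enzymes below were the most abundant members. GAPDH, which oxidises glyceraldehyde 3-phosphate (ENSG00000111640, chromosome 12, 6534517 to 6538371), had 4906, 4780.0 and 4978 CPM in wild type and 7329, 7424 and 7176 CPM in knockout (log2 fold change 0.53, SE 0.026, adjusted p = 3.54e-10, edgeR quasi-likelihood with Benjamini-Hochberg). PKM, the pyruvate kinase gene of most tissues (ENSG00000067225, chromosome 15, 72199029 to 72231591), had 2188, 2129 and 2228 CPM against 3738, 3772 and 3717 CPM (0.72, SE 0.025, adjusted p = 8.62e-12). The table counts genes, so the M1 and M2 splice forms of PKM were not separated. ENO1, the general enolase, rose from 2222 ± 47.8 to 2891 ± 53.3 CPM (0.33), and ENO2, the neuronal enolase, from 67.2, 67.7 and 73.7 CPM to 121, 124 and 139 CPM (0.82). TPI1, which interconverts the triose phosphates, rose from 1006 ± 7.24 to 1405 ± 34.6 CPM (0.43), and PGK1, the first ATP-yielding enzyme, from 578 ± 16.97 to 802 ± 18.9 CPM (0.42). ALDOA, the main aldolase, rose from 575 ± 6.86 to 694 ± 5.76 CPM (0.22) and PGAM1, the phosphoglycerate mutase, from 243 ± 6.82 to 299 ± 7.25 CPM (0.25). ALDOC, the brain aldolase, did not pass: 18.9, 21.2 and 20.8 CPM in wild type lay within reach of 23.56, 20.88 and 19.96 CPM in knockout (0.03, SE 0.073, adjusted p = 0.76).

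Together the 37 members took 1.59 to 1.601% of the counts of a wild-type library and 2.18 to 2.23% of a knockout library. The net gain was 6169 CPM, of which GAPDH supplied 39.3%, PKM 25.3% and ENO1 10.8%. Per kb of exon the order GAPDH, ENO1, PKM, LDHA, TPI1, ALDOA led in both clones, with GAPDH at 2198 ± 44.97 and 3287 ± 56.2 CPM per kb. With the length of the longest transcript in place of all exons, a choice added after seeing the data, PKM and ENO1 changed places in the knockout. PGAM1 (164 ± 3.96 CPM per kb) and PGK1 (161 ± 3.80 CPM per kb) followed ALDOA and did not differ beyond their spread in the knockout. GENCODE 29 annotates pseudogenes named after 13 members, 62 of them after GAPDH, so reads shared with such copies make these levels uncertain. PGAM4, a close copy of PGAM1, had 2.16 ± 0.956 and 2.71 ± 0.474 CPM.

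By counts, lactate dehydrogenase was LDHA almost alone. LDHA, whose subunit favours lactate formation (ENSG00000134333, chromosome 11, 18394563 to 18408425), had 1709, 1769.7 and 1708 CPM in wild type and 2065, 2035 and 1994 CPM in knockout (log2 fold change 0.18, SE 0.026, adjusted p = 2.36e-05, edgeR quasi-likelihood with Benjamini-Hochberg). LDHB, whose subunit favours lactate use (ENSG00000111716, chromosome 12, 21635342 to 21657842), had 0 counts in the 3 wild-type libraries and 10, 5 and 2 counts in knockout libraries a, b and c. Against a floor of 3 counts over the wild-type group this is at least 5.9-fold higher, at a knockout level of 0.140 ± 0.0967 CPM. LDHB did not pass the filter; with no filter it was called (adjusted p = 0.0113, edgeR quasi-likelihood with Benjamini-Hochberg). Per kb, LDHB made up 0.0128 ± 0.0087% of lactate dehydrogenase transcript in the knockout. AC010197.2, a gene without a row, overlaps LDHB exons on the same strand, and whether reads there went uncounted is not known. The 26 tested genes within 5 Mb of LDHB had a median log2 fold change of 0.58.

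Lactate transport shifted slightly between the carriers among the members. SLC16A3 (MCT4, a lactate exporter of glycolytic cells) had 134, 134 and 127 CPM in wild type and 173, 174 and 161 CPM in knockout (log2 fold change 0.31), while SLC16A1 (MCT1, which carries lactate both ways) had 241, 241 and 240 CPM against 218, 214 and 212 CPM (-0.22). Neither gene's groups overlapped. SLC16A3 rose from 33.0 ± 0.63% to 41.6 ± 0.84% of their sum per kb, and the sum was 77.0 ± 0.985 and 78.8 ± 1.91 CPM per kb with overlapping libraries. SLC16A7, a further monocarboxylate transporter gene outside the members, is not in this sum. It fell from 42.1 ± 2.69 to 33.3 ± 1.01 CPM and is named after its values were seen.

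The kinases that switch off pyruvate dehydrogenase rose. PDK4, the form known to respond to fasting and fatty acids (ENSG00000004799, chromosome 7, 95583499 to 95596516), had 0.740, 0.387 and 0.383 CPM in wild type and 4.65, 5.33 and 5.80 CPM in knockout, the largest rise of the 36 (log2 fold change 3.32, SE 0.256, adjusted p = 4.09e-08, edgeR quasi-likelihood with Benjamini-Hochberg). PDK1, a hypoxia target, rose from 36.6 ± 0.612 to 50.5 ± 1.29 CPM (0.41), PDK2 from 30.1 ± 0.848 to 37.8 ± 0.796 CPM (0.27) and PDK3 from 30.4 ± 2.51 to 42.1 ± 1.87 CPM (0.41). PDK4 stayed a minor form, at 0.62 ± 0.23% and 4.67 ± 0.55% of the sum per kb. In PDK2, 54.6% of the exon bases overlap SAMD14 on the opposite strand, which had 0.122 ± 0.0656 and 0.136 ± 0.0541 CPM. PDHA1, the catalytic subunit gene that these kinases act on, rose too, from 162, 159 and 158 CPM to 212, 213 and 216 CPM (0.36).

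Glycogen genes were split. PGM1, which links glucose 6-phosphate with glycogen, rose from 79.2, 81.5 and 80.0 CPM to 153, 161 and 150 CPM (log2 fold change 0.89, SE 0.033, adjusted p = 1.67e-11, edgeR quasi-likelihood with Benjamini-Hochberg). The brain phosphorylase PYGB rose from 101 ± 1.74 to 139 ± 5.22 CPM (0.40), and the liver phosphorylase PYGL fell from 199 ± 4.61 to 179 ± 4.41 CPM (-0.21). Glycogen synthase, GYS1, had 56.0, 58.2 and 54.3 CPM against 51.9, 54.0 and 53.3 CPM and passed by little (-0.14, adjusted p = 0.0187). That call was lost without knockout library a (adjusted p = 0.0972), without knockout library c (0.0628) and with library totals alone (0.131).

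**Figure D2:**
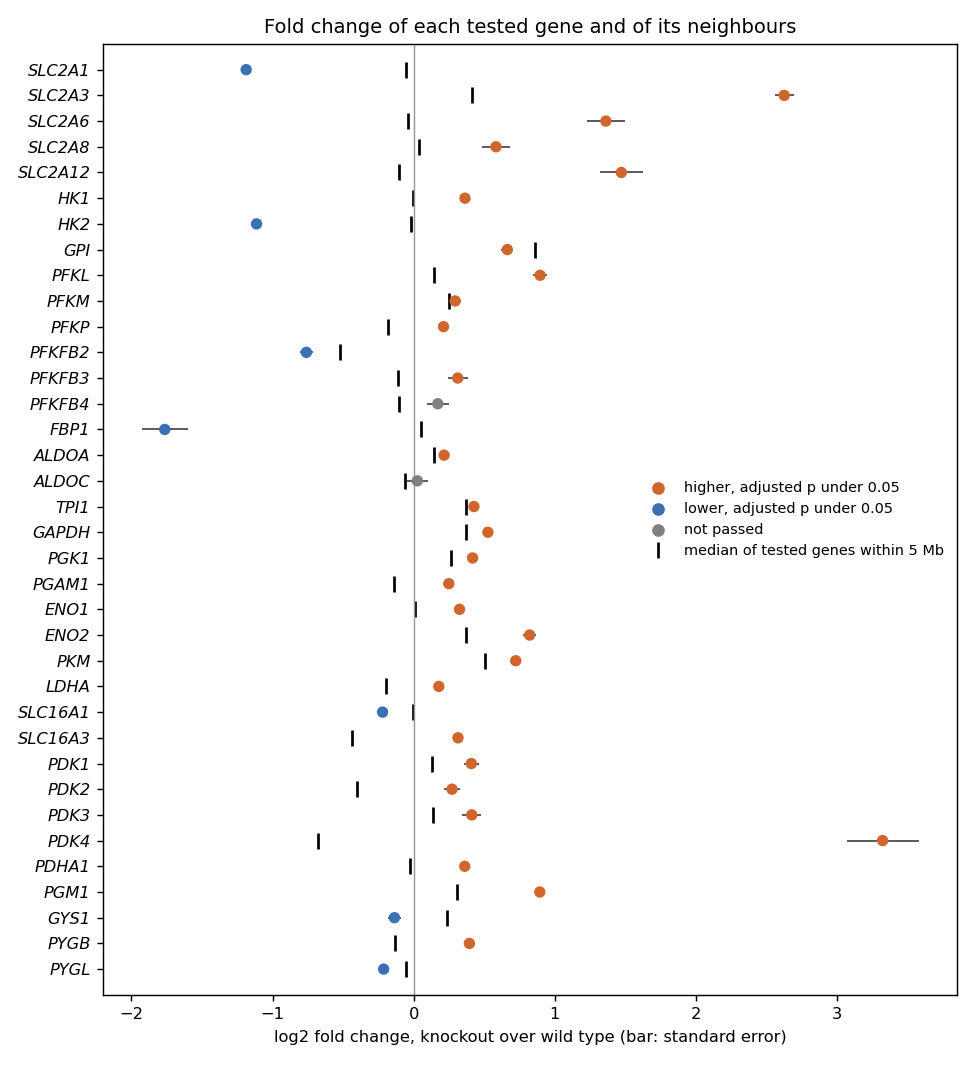
Log2 fold change, knockout over wild type, of the 36 tested genes in order of step (dot, with the standard error as a bar) and the median of tested genes within 5 Mb (black tick). Orange is higher and blue lower at an adjusted p under 0.05, grey did not pass. SLC2A3 and PDK4 stand far above their neighbours, SLC2A1, HK2 and FBP1 far below.

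Isoform ratios put these shifts on 1 scale. The 14 pairs join members of the same step and were chosen with earlier results of these data known. They leave out other possible pairs of these steps, and several share a gene. The log2 ratio of counts was taken in each library, and gene length cancels in its difference between clones. SLC2A3/SLC2A1 was -4.52, -4.52 and -4.40 in wild type and -0.61, -0.68 and -0.71 in knockout, a shift of 3.81 or 14.04-fold. PDK4/PDK2 shifted by 2.99, SLC2A12/SLC2A1 by 2.64, HK1/HK2 by 1.48 and PFKFB3/PFKFB2 by 1.07. Shifts were smaller for SLC16A3/SLC16A1 (0.53), ENO2/ENO1 (0.50), PFKM/PFKL (-0.60), PFKP/PFKL (-0.68) and PYGL/PYGB (-0.61). These 10 of the 13 pairs read did not overlap between clones. Among single genes, 77.3% of all those tested did not overlap in CPM. Each of the 10 pairs had an exact two-sided permutation p of 0.1 (0.127 with Benjamini-Hochberg adjustment over the 14 pairs). That p is the smallest that 3 against 3 libraries can give. The libraries overlapped for PFKFB4/PFKFB3 (-0.14), ALDOC/ALDOA (-0.19) and PDK3/PDK1 (0.01), with exact permutation p-values of 0.2, 0.2 and 0.9. The LDHB/LDHA ratio rests on the prior count, since LDHB was at 0, and is not read.

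**Figure D3:**
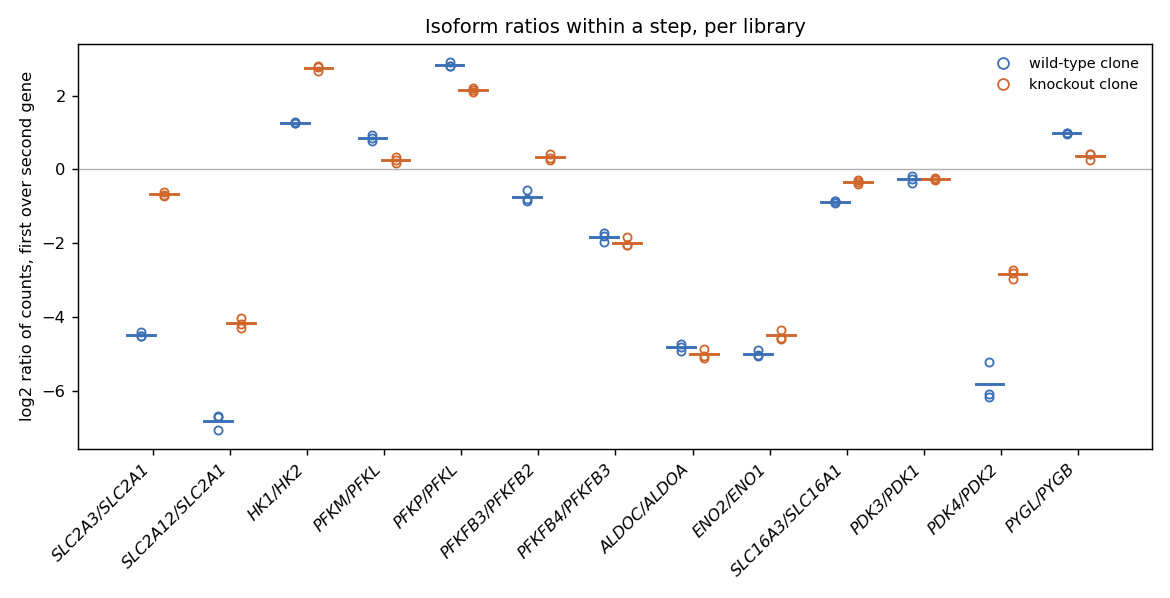
Log2 ratio of counts of 13 isoform pairs in each library (circles) with group means of 3 (bars), blue for the wild-type and orange for the knockout clone; levels of the ratio are not corrected for gene length. SLC2A3/SLC2A1 moves from about -4.48 to -0.67, and PDK3/PDK1 keeps its place.

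Each member was also set beside the median log2 fold change of the tested genes that start within 5 Mb of it. Of the 36 tested members, 20 had the sign of their neighbourhood median and 16 the opposite sign. As many lay outside its quartiles as inside (18 each), the split that quartiles give by definition. GAPDH, TPI1 and ENO2 share the end of the short arm of chromosome 12, where the neighbourhood median was 0.37, and their fold changes were 0.53, 0.43 and 0.82. SLC2A3, on the same stretch (median 0.41), rose by 2.63. PKM (0.72) lay in a neighbourhood at 0.50, and GPI (0.66) in one at 0.86. PFKFB2 (-0.76) lay in a neighbourhood at -0.52. Others went against theirs: PDK4 (median -0.68), SLC16A3 (-0.44), PDK2 (-0.40) and LDHA (-0.20) rose. For SLC2A1, HK2, HK1, ENO1, SLC16A1 and PDHA1 the neighbourhood median lay between -0.06 and 0.01. These are descriptions without a test, and the part of neighbourhood in the members' changes was not tested.

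Other genes of glucose metabolism were read from lists, with the same fit; each count stands beside 37.1% of all tested genes higher and 37.2% lower. Of 21 other isoenzymes of glycolysis, 12 were tested, 6 rose and 1 fell, with a median log2 fold change of 0.35. PGAM2, counted among the 6 and named after its values were seen, had 0.276 ± 0.124 and 0.755 ± 0.123 CPM. It needed the knockout libraries to pass the filter. ENO3, the muscle enolase, rose from 2.31 ± 0.132 to 6.87 ± 0.379 CPM, and LDHD, a D-lactate dehydrogenase, from 0.316 ± 0.0289 to 1.29 ± 0.122 CPM. The fall was PGAM5, a mitochondrial phosphatase of the mutase family, from 87.4 ± 4.12 to 50.4 ± 1.02 CPM. Of 19 other transporters and their partners, 9 were tested, 5 rose and 3 fell (median 0.17). SLC2A4, counted among the 5, had 0.169 ± 0.104 and 0.534 ± 0.0810 CPM and passed the filter on the strength of the knockout libraries alone. It is named after its values were seen. SLC2A10 rose from 4.22 ± 0.393 to 20.5 ± 0.609 CPM and SLC2A13, a myo-inositol carrier, from 10.9 ± 0.731 to 34.7 ± 2.20 CPM. Both subunits of the mitochondrial pyruvate carrier fell, MPC1 from 6.71 ± 0.407 to 4.70 ± 0.619 CPM and MPC2 from 49.9 ± 1.14 to 34.0 ± 2.65 CPM.

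Of 8 further genes of the pyruvate dehydrogenase complex and its phosphatases, 7 were tested, 4 fell and 2 rose (median -0.11). DLAT, the acetyltransferase core, fell from 171 ± 3.59 to 118 ± 4.51 CPM and PDP2, a phosphatase that reactivates the complex, from 47.6 ± 4.48 to 29.2 ± 1.82 CPM. PDPR, a regulatory subunit of pyruvate dehydrogenase phosphatase, rose from 28.5 ± 1.90 to 76.4 ± 3.15 CPM, and PDHB from 78.2 ± 2.41 to 91.4 ± 2.63 CPM. Of 8 tested genes of the pentose phosphate pathway, which makes NADPH and ribose, 4 rose and 3 fell (median 0.14). RPE, an epimerase of its ribose branch, rose from 76.5 ± 2.63 to 137 ± 3.61 CPM. RPIA fell from 32.1 ± 2.36 to 19.6 ± 1.13 CPM and TIGAR from 37.1 ± 0.657 to 31.5 ± 1.35 CPM.

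Of 19 tested glycogen genes outside the members, 9 rose and 6 fell (median 0.21). STBD1, counted among the 9 and named after its values were seen, had 0.422 ± 0.167 and 0.967 ± 0.254 CPM. It needed the knockout libraries to pass the filter. PPP1R3C, which targets a phosphatase to glycogen, rose from 3.96 ± 0.442 to 11.1 ± 0.370 CPM. GYS2, the liver synthase, had 0 counts in wild type and 16, 14 and 13 in knockout, at least 14.9-fold higher against 3 counts over the group, and it passed the filter on the strength of the knockout libraries alone. PGM2L1 fell from 72.1 ± 0.764 to 32.1 ± 0.468 CPM and PPP1R3D from 9.05 ± 0.733 to 4.85 ± 0.193 CPM. Of 4 tested gluconeogenic genes, 1 rose, PCK2 (10.6 ± 0.426 to 13.8 ± 0.233 CPM), and 3 did not pass (median -0.03). Of 11 regulators of glycolytic genes, 4 rose and 5 fell (median -0.04). EPAS1, which encodes the hypoxia-inducible factor HIF-2 alpha, rose from 105 ± 1.19 to 233 ± 4.12 CPM and PPARGC1A, a coactivator of mitochondrial genes, from 1.63 ± 0.249 to 9.10 ± 1.03 CPM. ARRDC4, an arrestin that lowers glucose uptake, fell from 16.5 ± 1.02 to 9.49 ± 0.720 CPM, and ESRRA from 31.7 ± 1.66 to 20.2 ± 1.40 CPM. HIF1A, MYC and ARNT of the same list are named after their values were seen. HIF1A rose from 1253 ± 27.6 to 1895 ± 9.94 CPM and MYC fell from 202 ± 7.07 to 153 ± 3.62 CPM. ARNT did not pass, at 68.4 ± 3.52 and 69.2 ± 0.766 CPM.

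**Figure D4:**
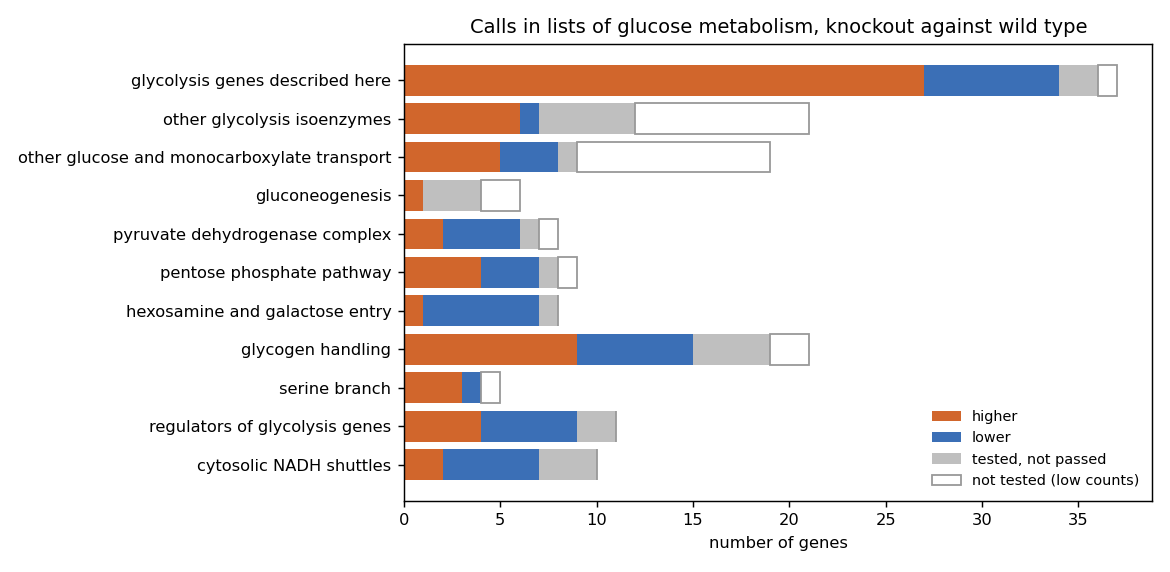
Number of genes higher (orange), lower (blue), tested but not passed (grey) and not tested for low counts (open) in 11 lists of glucose metabolism, knockout against wild type, edgeR quasi-likelihood with Benjamini-Hochberg adjustment. The top bar holds the 37 genes described here, with 27 higher and 7 lower. Among the lists below it, hexosamine and galactose entry has 6 of 8 tested genes lower and the shuttles 5 of 10. Over all tested genes, 37.1% were higher and 37.2% lower.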

How the data were processed

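Polyadenylated RNA was measured in 6 libraries, 3 per clone, prepared, per the labels' protocols, by Illumina's strand-marking TruSeq chemistry. The authors deposited 1 table of raw read counts per gene symbol. Trimmomatic 0.33, FastQC, HISAT2, edgeR and build hg38 are named in the submitters' processing notes; for the counting program, its strand setting and its gene models the entry is "not given in the sources used here". The 28 rows named like spreadsheet dates (0.243 to 0.269% of a library) stayed in totals and tests.

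The comparison of clones used R 4.3.3 and its package edgeR 4.0.16: filterByExpr, TMM factors, the quasi-likelihood F test and Benjamini-Hochberg adjustment over 14405 genes (threshold 0.05). SE is the size of the log2 fold change over the root of F. No pair of libraries within a group agreed within sampling noise (chi-square per degree of freedom 4.18 to 7.6). TMM factors were 0.98 to 1.02, and 3 counts equal 0.0719 to 0.0812 CPM. Levels per kb used the union of exons of GENCODE 29 basic transcripts. Positions and promoters came from RefSeq, GRCh38.p14. Log2 isoform ratios used a prior count of 2. The steps were tested on simulated data.

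The members, lists and pairs were chosen with earlier results of these data known. All members are named; of the other lists, at most the 2 largest rises and falls that passed, AQP1 and listed markers. A gene that this rule would name is not reported here. SLC2A14, PGAM4 and genes overlapping a member are named beside it as possible sources of shared reads. Alternatives were RLE factors, library totals, 2 other filters, DESeq2 1.42.0, limma-voom 3.58.1, a replicate block, each library left out, an adjusted p of 0.01 and glmTreat at 1.5-fold.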

Additional observations from a re-analysis of the deposited data

How the results depend on the processing

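Of the alternatives run on the whole table, glmTreat against a 1.5-fold change moved counts by over 1.5 times: 2384 genes were called higher and 1970.0 lower, and of the members 9 and 4. In the other alternatives 27 or 28 members were higher and 6 or 7 lower, including a replicate block (27 and 7), DESeq2 and limma-voom. Same-letter libraries of the clones did not deviate together (correlations 0.06, -0.02 and 0.01), so the letters were not taken as pairs, and the block changed no member's call. Apart from the 21 member calls lost with glmTreat, the calls that depended on a setting were GYS1, PFKFB4 and, with no filter, LDHB. ALDOC, not called in any of them, changed sign without wild-type library a (-0.03) and without knockout library a (-0.038), in a range of -0.038 to 0.097 over left-out libraries. Isoform ratios kept their direction when a library was left out or the prior count was 0.5, except PDK3/PDK1, which ranged from -0.045 to 0.053 when single libraries were left out. With 2 Mb in place of 5 Mb the neighbourhood median changed sign for SLC2A6, SLC2A12 and PFKP (to 0.08, 0.07 and 0.35), and medians near 0, such as those of HK1 and SLC16A1, changed sign when single libraries were left out. The cause of these changes was not tested. Scaling by library totals moved the median of all genes to 0.06. Depth limits LDHB, at 0 to 10 counts in a library.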

Other observations

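Branches that leave glycolysis were also measured. In the hexosamine and galactose list, 6 of 8 genes tested fell and 1 rose, where 37.2% of all tested genes were lower and 37.1% higher, with a median log2 fold change of -0.31 (edgeR quasi-likelihood, Benjamini-Hochberg over all genes). UAP1, which makes UDP-N-acetylglucosamine, fell from 248 ± 6.21 to 91.0 ± 2.22 CPM (mean ± SD, n = 3), and GNPNAT1, an acetyltransferase of the same path, from 322 ± 1.41 to 179 ± 4.41 CPM. The exception was GFPT2, an isoform of its entry enzyme, which rose from 1.70 ± 0.132 to 23.4 ± 1.51 CPM.

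In the serine branch, PHGDH, which draws 3-phosphoglycerate out of glycolysis, rose from 11.8 ± 0.774 to 78.4 ± 2.12 CPM and PSPH from 18.7 ± 0.317 to 35.0 ± 1.34 CPM, while SHMT1 fell from 77.2 ± 2.91 to 61.7 ± 1.75 CPM. PSAT1, the enzyme between PHGDH and PSPH, had too few counts to be tested: no count in wild type and at most 2 counts in a knockout library. It is named after its values were seen. Of 10 genes of the shuttles that carry cytosolic NADH equivalents into mitochondria, 5 fell and 2 rose (median -0.25). The shares of all tested genes were 37.2% lower and 37.1% higher. SLC25A13, an aspartate-glutamate carrier, fell from 65.4 ± 3.23 to 39.3 ± 3.09 CPM and GOT1, the cytosolic aminotransferase, from 96.1 ± 4.41 to 63.1 ± 0.213 CPM. MDH1 rose from 91.7 ± 1.48 to 118 ± 1.35 CPM and GPD1L from 16.7 ± 0.561 to 21.4 ± 1.14 CPM.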
